A study of Mus musculus with 125 samples.

Results

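The open chromatin of brain endothelium, the cell layer that lines the brain's blood vessels, was compared between adult and young postnatal mice over 5 ATAC-seq peak lists, of the 66 ATAC-seq libraries of the series. ATAC-seq cuts accessible DNA with a transposase, and a peak marks a stretch cut more often than its surroundings. The 2 adult lists come from 2-month-old mice given tamoxifen by intraperitoneal injection 7 days before collection, and the 3 postnatal lists, labelled P6, from pups injected under the skin at P1 and P3. The protocol text places their collection at P7, and the labels' P6 names them below. The mice of the ATAC-seq and bulk RNA libraries received 0.015 mg/kg tamoxifen, which switched on GFP in the vessels, and nuclei were prepared from fresh tissue. No tamoxifen is given for the single-cell libraries used below. Input libraries are of nuclei of the whole brain. The labels name neither the strain, the Cre driver, the sex nor whether animals were pooled, so p-values measure the spread between these libraries, which may be technical.

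Brain endothelium differs from most other endothelium in its barrier. Claudin and other tight junction proteins seal the cells to each other, transporters carry nutrients in and drugs out, and Wnt/beta-catenin signalling sets up these traits before birth. Brain vessels of the first postnatal week still sprout and divide, while adult brain endothelium rarely divides.

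A region is a stretch covered by the merged peaks of the lists compared, each list being reduced to its 27136 peaks with the highest −log10 q, the length of the shortest list (P6 1). The rank of a peak counts from the highest −log10 q of its library. A region was called adult-only when the shortened lists of both adult libraries held a peak there and those of P6 2 and P6 3 held none, P6-only in the opposite case, and shared when all 4 held a peak. P6 1, whose whole list shares little with those of P6 2 and P6 3, is added in values given beside these. Of 42030 regions, 2309 were adult-only (5.49%), 2033 were P6-only (4.84%) and 16029 were shared (38.1%). A gene start, from a RefSeq promoter table of GRCm38.p6, counted as age-restricted in the same way when peaks lay within 1 kb of it.

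A peak may lie anywhere within that 1 kb, and at Igfbp1 it lies past the printed stretch, within the gene. The promoters below are the 3 with the highest-ranked adult-only peaks and the 3 with the highest-ranked P6-only peaks, and are shown because they lead that order in the age that called them, which does not measure the distance between the ages. Each is the 250 bases before the listed start, from RefSeq (GRCm38.p6), 5′ to 3′ on the gene's strand. Capitals mark matches to any of the 14 motifs named further on, and a promoter without capitals held none. In the adult lists, peaks lay within 1 kb of the starts of Itih5 (chr2:10153293-10153542, plus strand), Pde8b (chr13:95223051-95223300, minus strand) and Ezh1 (chr11:101226464-101226713, minus strand).
Itih5: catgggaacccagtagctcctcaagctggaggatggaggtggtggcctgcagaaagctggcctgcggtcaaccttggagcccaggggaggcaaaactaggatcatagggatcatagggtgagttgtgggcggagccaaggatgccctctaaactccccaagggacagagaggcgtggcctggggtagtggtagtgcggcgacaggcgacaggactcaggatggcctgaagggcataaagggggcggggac
Pde8b: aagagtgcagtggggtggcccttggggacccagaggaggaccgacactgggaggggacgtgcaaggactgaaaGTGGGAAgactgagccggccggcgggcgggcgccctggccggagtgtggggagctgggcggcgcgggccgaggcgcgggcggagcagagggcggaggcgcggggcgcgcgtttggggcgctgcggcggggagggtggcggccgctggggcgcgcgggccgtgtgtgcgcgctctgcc
Ezh1: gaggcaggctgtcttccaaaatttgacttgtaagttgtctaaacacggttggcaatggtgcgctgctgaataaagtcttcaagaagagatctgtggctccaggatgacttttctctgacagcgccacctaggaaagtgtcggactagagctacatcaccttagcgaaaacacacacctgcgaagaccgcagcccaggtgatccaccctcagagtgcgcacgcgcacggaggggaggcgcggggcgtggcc
In the P6 lists, peaks lay within 1 kb of the starts of Synpr (chr14:13284530-13284779, plus strand), Igfbp1 (chr11:7197537-7197786, plus strand) and Fgf12 (chr16:28753244-28753493, minus strand).
Synpr: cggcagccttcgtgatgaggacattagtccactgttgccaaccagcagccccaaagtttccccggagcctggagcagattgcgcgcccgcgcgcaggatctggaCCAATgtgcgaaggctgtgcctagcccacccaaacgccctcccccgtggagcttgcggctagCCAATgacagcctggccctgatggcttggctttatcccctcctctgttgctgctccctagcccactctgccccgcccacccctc
Igfbp1: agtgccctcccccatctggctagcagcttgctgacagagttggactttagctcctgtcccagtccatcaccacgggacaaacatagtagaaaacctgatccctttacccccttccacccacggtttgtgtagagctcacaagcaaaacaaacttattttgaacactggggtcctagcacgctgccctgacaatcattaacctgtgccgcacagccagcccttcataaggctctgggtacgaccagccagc
Fgf12: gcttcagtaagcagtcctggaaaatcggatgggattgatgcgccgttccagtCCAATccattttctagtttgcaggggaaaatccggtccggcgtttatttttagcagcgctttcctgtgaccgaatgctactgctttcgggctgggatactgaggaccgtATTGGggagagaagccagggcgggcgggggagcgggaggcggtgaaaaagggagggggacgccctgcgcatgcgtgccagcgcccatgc

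The 5 lists differed more in length than in reads. They held 38465 and 45094 peaks in the adult libraries and 27160, 87133 and 79903 in P6 1, 2 and 3, from 17.9 and 23.9 M tags kept in adult and 19.6, 20.2 and 19.1 M in P6. At 27136 peaks each, the lowest −log10 q kept was 3.43 and 3.98 in adult and 1.00, 7.71 and 6.91 in P6. In the whole lists P6 1 shared little with its replicates: the Jaccard index, the bases in both lists over the bases in either, was 0.272 with P6 2 and 0.296 with P6 3, against 0.560 between those 2. At matched length the answer depended on the measure. By the Jaccard index P6 1 still lay lowest, at 0.434 to 0.486 with the other 4 lists, against 0.501 to 0.638 for the other pairs, and its shortened list covers the fewest bases (11.9 Mb, against 14.3 to 17.8 Mb). By the share of peaks that overlap by at least 1 base it did not: P6 1 and P6 3 shared 75.5% of their peaks, P6 2 and P6 3 shared 72.7%, and P6 1 and P6 2 shared 67.6%. P6 2 shared 73.6% and 73.9% with the adult lists, more than with either P6 list, but by the Jaccard index it was nearest to P6 3 (0.564, against 0.540 and 0.562 with Adult 1 and 2). Of the adult lists, 82.3% of the Adult 1 peaks were in Adult 2 and 81.7% the other way round.

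**Figure D1:**
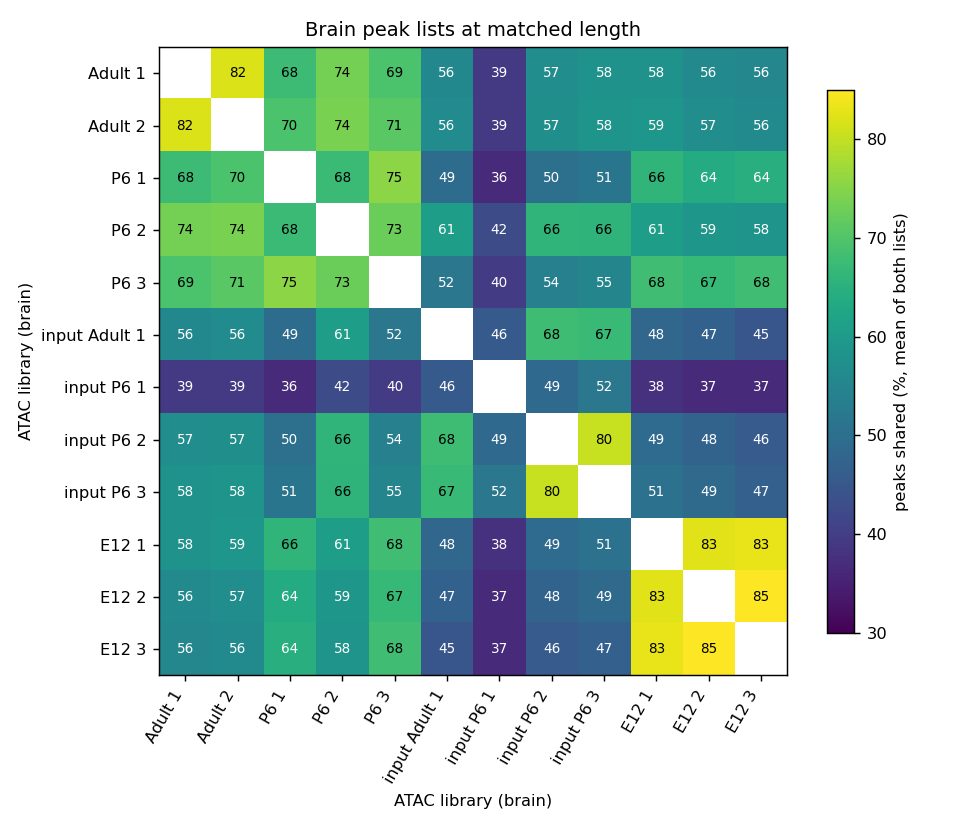
Share of peaks (%) that overlap by at least 1 base between each pair of brain ATAC-seq lists at 27136 peaks each, as the mean over both lists, for endothelial (Adult, P6, E12) and whole-brain input libraries. P6 2 is the P6 endothelial list nearest to the input lists P6 2 and P6 3, at 66.1% and 65.7%. By this share all P6 endothelial lists are nearer to each E12 list than the adult lists are, P6 2 by the least. By the Jaccard index at matched length this holds for P6 2 and P6 3 only. P6 1 then has 0.339, 0.322 and 0.329 with E12 1, 2 and 3, against 0.347, 0.328 and 0.331 for Adult 1 and 0.384, 0.363 and 0.366 for Adult 2.

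The labelled cell type was checked by the peaks within 5 kb of marker genes. Peaks lay at all 14 endothelial marker genes in every list except Adult 1, which had none at Emcn. The number of peaks at these genes was 34 and 39 in adult and 55, 25 and 37 in P6 1, 2 and 3, against 7 to 11 in the 4 input lists. At 11 astrocyte marker genes there were 25 and 25 peaks in adult and 14, 28 and 17 in P6 1, 2 and 3, against 19 to 25 in the input lists, so astrocyte marker peaks were about as many in adult and P6 2 as in whole brain. At 15 neuron marker genes there were 9 and 10 in adult and 12, 16 and 14 in P6, against 12 to 28 in input. P6 2 thus had the fewest endothelial and the most astrocyte and neuron marker peaks of the 5 lists. In these bulk nuclei, fewer cells of a type and weaker signal per cell cannot be told apart. Other markers were also as frequent as in input or nearly so: microglia markers had 8 to 10 peaks in the 5 lists against 3 to 9 in input, mural markers 5 to 9 against 2 to 6, meningeal fibroblast markers 5 to 9 against 5 to 8, neural progenitor markers 9 to 11 against 5 to 14 and oligodendrocyte markers 6 to 10 against 7 to 14. The part of chromatin of any of these cell types in the differences below was not tested. The read files also differed in kind, by the names of the deposited peak lists. These names give 1 kind for both adult libraries and P6 3 and another for P6 1 and P6 2. P6 3 is the only P6 list of the adult kind. Comparisons are also given for P6 1 and 3, the P6 lists with the highest share of overlapping peaks, against adult, a choice made after the lists had been seen.

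**Figure D2:**
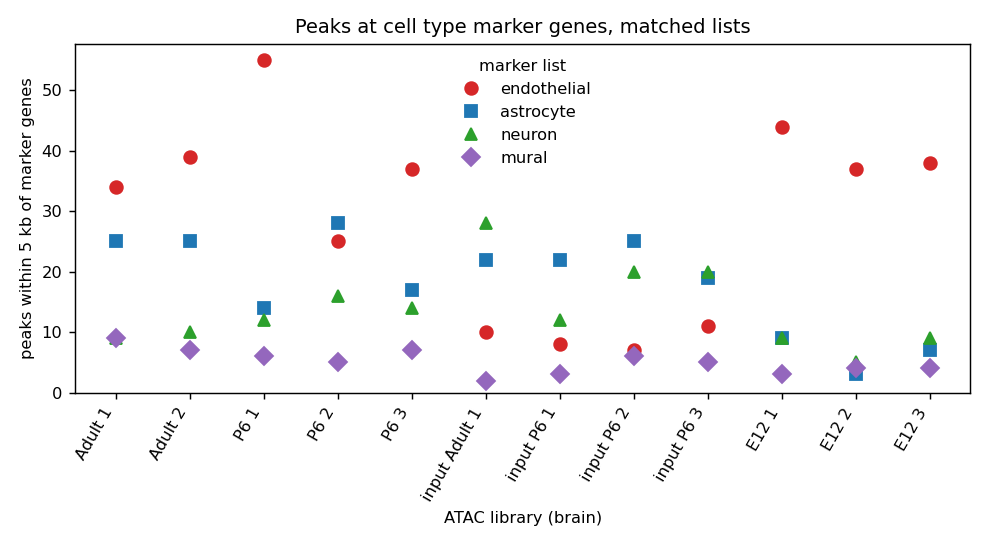
Number of peaks within 5 kb of the genes of 4 marker lists (14 endothelial, 11 astrocyte, 15 neuron and 12 mural genes) in each brain ATAC-seq list at 27136 peaks. Endothelial marker peaks number 25 to 55 in the adult and P6 endothelial lists and 7 to 11 in the input lists.

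Separation of the lists by age was measured as a whole, in a design that cannot reach a p below 0.1. The Jaccard index at matched length was 0.530 on average over the 4 pairs of the same age and 0.513 over the 6 pairs of different age. That difference of 0.0170 had an exact one-sided permutation p of 0.4 over 10 labelings. The adult pair had an index of 0.638 and the P6 pairs 0.434, 0.486 and 0.564. Without Adult 1 or Adult 2 no adult pair remained, and the P6 pairs lay on average below the pairs of different age. The pair of P6 2 and P6 3, at 0.564, did not. The difference was then -0.0260 or -0.0116. Without P6 1 or P6 2 it was 0.0665 or 0.0671 (exact permutation p = 0.33 for both, the smallest that 2 against 2 lists can give).

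Adult-only and P6-only regions were unlike in what the other age held there. Of the 2309 adult-only regions, 2245 (97.2%) had a peak in the whole list of P6 2 or P6 3, further down than rank 27136. Their median rank was 19806 and 20304 in Adult 1 and 2 and, where a peak existed, 39200.5 and 39836.0 in P6 2 and P6 3. Their median fold enrichment, the authors' ratio of tags over the local background, was 4.29 and 4.16 in adult and 4.05 and 3.81 in P6 2 and P6 3. The adult-only class therefore describes order within a list: judged against whole lists, 64 regions (0.152% of all) had no peak in P6 2 or P6 3. Of the 2033 P6-only regions, 977 (48.1%) had a peak in a whole adult list and 1056 had none (2.51% of all regions). Their median fold enrichment was 5.70 and 5.81 in P6 2 and P6 3 and, where a peak existed, 3.53 and 3.44 in adult. The adult lists are shorter than those of P6 2 and P6 3, so absence from them is the easier to meet.

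P6 1 was not used to call these regions and held a peak at 641 of the adult-only regions (27.8%, Wilson 95% interval 26.0 to 29.6%), at 1135 of the P6-only regions (55.8%, 53.7 to 58.0%) and at 14552 of the shared ones (90.8%). Its peaks were thus more frequent at P6-only than at adult-only regions. With P6 1 required as well, 1668 adult-only and 1135 P6-only regions remained of 45450 (3.67% and 2.50%), beside 32.0% shared. With P6 1 and 3 in place of P6 2 and 3 there were 3085 and 3145 of 42343 (7.29% and 7.43%), beside 36.8% shared.

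Age-restricted regions lay away from gene starts more often than shared regions, which ranked higher. A listed start was within 1 kb of 278 of the 2309 adult-only regions (Wilson 95% interval 10.8 to 13.4%) and 6.00% of the P6-only regions, against 48.7% of the shared ones. Gene bodies away from starts held 47.8% of the adult-only and 43.3% of the P6-only regions, and 13.6% and 22.8% lay over 50 kb from any protein-coding gene. Adult-only regions had a median length of 463 bp, P6-only regions 500 bp and shared regions 831 bp. No peak of any whole brain input list overlapped 19.5% of the adult-only, 21.3% of the P6-only and 2.32% of the shared regions. These are whole input lists of 71759 to 131710 peaks, and a peak in 1 of the 4 sufficed. The median rank of shared regions was 8153 and 8121 in Adult 1 and 2, against 19806 and 20304 for adult-only regions. In P6 2 and P6 3 it was 8290 and 8737, against 19494 and 16428 for P6-only regions. Regions of matched rank were not compared, so the part of rank in these differences was not tested.

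The 12 highest-ranked regions of each age follow, ordered by the rank in whichever of the 2 calling libraries placed them further down. The first adult-only region lay 2152 bp outside Tap2 (chr17:34218473-34219425), which encodes a subunit of the peptide transporter for MHC class I. It ranked 5009 and 6257 in Adult 1 and 2, 36405 and 27272 in P6 2 and 3, and 22632 in P6 1, whose shortened list thus held it. A region within Dock2 (chr11:34681596-34682291), a Rac activator of leukocytes, ranked 6858 and 4433 in adult, 72864 and 53265 in P6 2 and 3, and 20217 in P6 1. A region within Lmo7 (chr14:101868950-101869632), which encodes an adherens junction protein, ranked 7102 and 6515 in adult, 34428 and 50003 in P6 2 and 3, and had no peak in P6 1 or in any input list. At Itih5, which encodes a hyaluronan-binding matrix protein, the region spanned the start (chr2:10153152-10153775) and ranked 8415 and 8212 in adult, 28640 and 27836 in P6 2 and 3, with no peak in P6 1. At Gas6, the ligand of the TAM receptors, a region 21449 bp outside the gene (chr8:13515984-13516404) ranked 9272 and 7773 in adult and 69111 and 30830 in P6 2 and 3, with no peak in P6 1.

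The other named adult-only regions were nearest to Eif2a, Cyp2b19, Asap1 and F12, and 3 had no gene within 50 kb. In all 12 the adult ranks were above both P6 2 and P6 3, which the rule fixes. P6 1 had no peak at 6 of the 12. At 1 region on chromosome 6 with no gene within 50 kb (chr6:117437648-117438428) P6 1 ranked 5647, ahead of 6696 and 8520 in Adult 1 and 2, and at another (chr6:103314517-103314811) 4090, ahead of 8639 and 7866.

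The first P6-only region was in Heatr5a (chr12:51887643-51888317), which encodes a HEAT-repeat protein. It ranked 738, 2261 and 499 in P6 1, 2 and 3 and 34869 and 31807 in adult. In Ldb2, which encodes a cofactor of LIM-domain transcription factors, a region (chr5:44759122-44759629) ranked 3427, 5832 and 3540 in P6, had no peak in Adult 1 and ranked 39380 in Adult 2. In Nfia, a nuclear factor I gene, a region (chr4:97657527-97657917) ranked 7584, 6293 and 3986 in P6 and 27410 in Adult 1, just outside the shortened list. In Igfbp1, which encodes a binding protein of insulin-like growth factors, a region (chr11:7198528-7199213) ranked 4595, 7169 and 1659 in P6 and had no peak in either adult list. The others were nearest to Tmem236, Trabd2b and Synpr, and 5 had no gene within 50 kb.

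P6 1 held all 12 in its shortened list, 6 of them had no peak in either whole adult list, and all 12 were in the shortened lists of all 3 E12 libraries of brain endothelium. None of the 12 adult-only regions lacked a P6 peak in the whole lists, and 9 of them were in none of the E12 lists shortened to 27136 peaks. The adult lists are the shorter ones, so the counts of absence do not compare the ages. All 12 P6-only regions had a peak in at least 1 input list, as had 9 of the 12 adult-only regions.

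**Figure D3:**
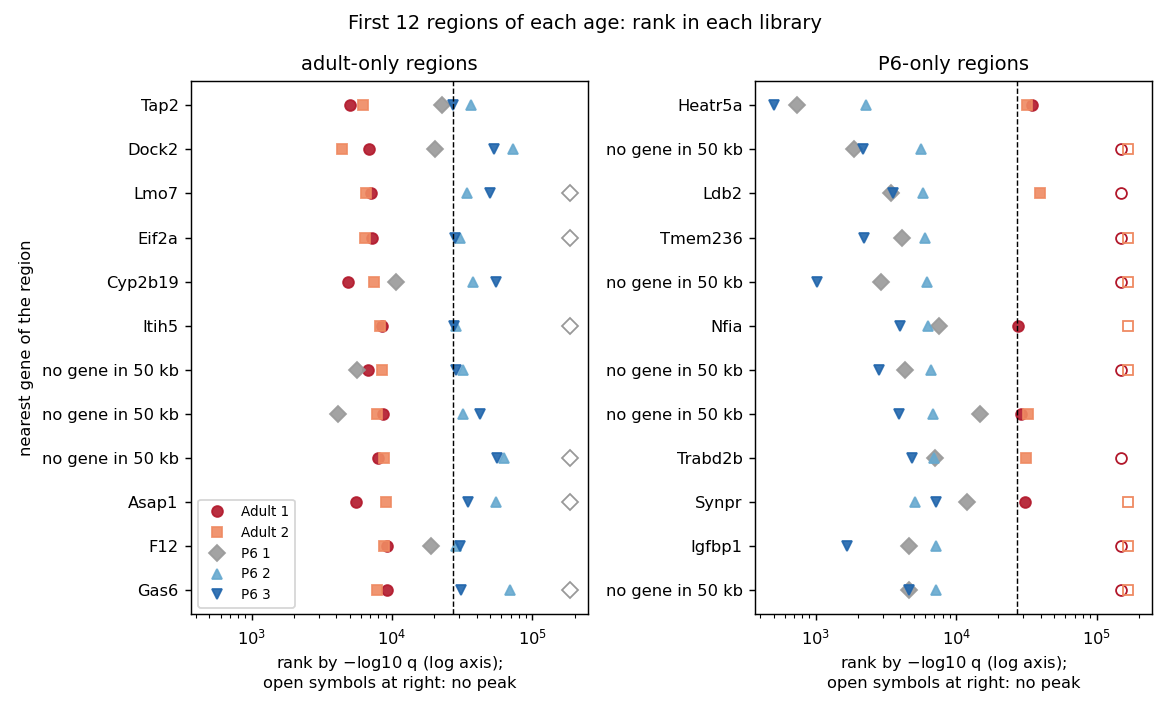
Rank by −log10 q (log axis) of the 12 highest-ranked adult-only and P6-only regions in each of the 5 libraries, each region being labelled by its nearest gene. The dashed line marks rank 27136, and open symbols at the right mark libraries with no peak. P6 1 lies with P6 2 and P6 3 at the 12 P6-only regions and in 6 of 12 cases left of the line at the adult-only regions.

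The genes with the most age-restricted regions spanned 73.9 to 759 kb. Zbtb20, which encodes a zinc finger repressor and lies on chromosome 16, had 5 adult-only and no P6-only regions, of which 4 remained with P6 1 and 1 had no input peak. Asap1, Nav2, Kazn, Nfib, Zhx2, Rgs3 and Gse1 had 4 adult-only regions each. With P6 1, Nav2 kept 4, Asap1, Kazn and Rgs3 kept 3, Zhx2 and Gse1 kept 2 and Nfib kept 1. Asap1, Nav2 and Kazn also had 1 P6-only region each. Nfia, Wdfy1, Limch1, Lrrfip1, Tenm4, Slc14a2, Frmd4a and Lyn had 3 P6-only regions each. Wdfy1, Limch1, Lrrfip1 and Lyn, a Src family kinase gene, kept all 3 with P6 1, whereas Nfia, Tenm4 and Frmd4a kept 1. Nfia, Limch1 and Frmd4a also had 2 adult-only regions each.

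Lists of genes were then read by the nearest gene of each region, within 50 kb. Of all 21631 protein-coding genes, 1690 (7.81%) had an adult-only and 1390 (6.43%) a P6-only region, or 5.69% and 3.81% with P6 1 and 9.63% and 9.32% with P6 1 and 3. Where a region counts for any gene within 50 kb, not the nearest alone, the shares were 17.6% and 12.6%, and for regions with no input peak 1.70% and 1.51%, and counts in these settings are to be read against them. Shared regions lay at 50.3% of all genes and at 43.8% (venous and adhesion) to 93.8% (tight junction) of the members of the 17 lists, above 50.3% in most, so a share above background is not particular to an age. Lists with 1 age only are given first.

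Among 22 genes of the circadian clock and of the glucocorticoid response, 6 had an adult-only region and none had a P6-only region (27.3% and 0%). The 6 were the clock repressor genes Per1, Cry1 and Nr1d1, the clock-linked repressor gene Nfil3, and the glucocorticoid-induced genes Zbtb16 and Sgk1, Nr1d1 and Nfil3 being named because they complete the count. Near Sgk1, which encodes a kinase of ion transport, a region 24093 bp outside the gene (chr10:21857594-21858091) ranked 9552 and 7611 in Adult 1 and 2, 85153 and 46964 in P6 2 and 3, and had no peak in P6 1 or any input list. Near Per1, a region 412 bp outside the gene (chr11:69110377-69111112) ranked 14899 and 15911 in adult, 49216 and 30373 in P6 2 and 3, and had no peak in P6 1. In Zbtb16 a region (chr9:48675172-48675567) ranked 18487 and 20291 in adult and 67377 and 56601 in P6 2 and 3, again with no peak in P6 1. In Cry1 a region (chr10:85161794-85162103) ranked 19783 and 18511 in adult and 31861 and 28656 in P6 2 and 3. Its fold enrichment was lower in adult (4.58 and 4.65) than in P6 2 and 3 (4.69 and 5.03). At Sgk1 it was 5.49 and 6.25 against 2.93 and 4.02, and at Per1 4.48 and 4.48 against 3.95 and 4.47. With fold ranks the regions of Cry1, Nr1d1 and Nfil3 were no longer adult-only, while those of Sgk1 and Per1 were. P6 1 held no peak at any of the 6, so the count was also 6 and 0 with it. With P6 1 and 3 in place of P6 2 and 3 the count was 11 and 4, and with any gene within 50 kb 8 and 2, so the absence of P6-only members depended on these choices. The 2 of 22 are under the 12.6% of all genes in that setting. For regions with no input peak the count was 2 and 0 (9.09% and 0%, against 1.70% and 1.51% of all genes). The regions of Per1, Cry1 and Nfil3 had a peak in all 4 whole input lists.

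Of 22 Notch and arterial genes, 4 had an adult-only and none a P6-only region, or 3 and 0 with P6 1. Bmx, a kinase gene of arterial endothelium, had 2, both within the gene and outside every input list. They ranked 21021 and 25431, and 20533 and 16337, in Adult 1 and 2, at 53530 or below in P6 2 and 3, and had no peak in P6 1. Notch1, its target Heyl and Mgp, an inhibitor of calcification and of BMP, had 1 each. Fold enrichment at the Mgp region was lower in adult (4.02 and 4.08) than in P6 2 and 3 (4.91 and 4.47). At the regions of Bmx, Notch1 and Heyl it was higher in adult. With P6 1 and 3, 4 and 8 members had such regions, so that the direction of this list turned. Of 27 MHC and interferon genes, 3 (Irf1, Tap2 and Irf7) had adult-only regions and none P6-only ones, which became 1 and 0 with P6 1, 1 and 4 with P6 1 and 3, and 8 and 3 with any gene within 50 kb (29.6% and 11.1%, against 17.6% and 12.6% of all genes).

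Of 24 genes of sprouting and tip cells, the leading cells of a growing vessel, 5 had a P6-only region (20.8%) and 3 an adult-only one (12.5%). With P6 1 these were 4 and 2, and with P6 1 and 3 they were 13 and 2, a setting in which most lists had more P6-only than adult-only members. Aplnr, the apelin receptor gene, had a P6-only region within the gene (chr2:85136064-85136621) that ranked 5011, 10311 and 5782 in P6 1, 2 and 3 and had no peak in either adult list. In Flt1, which encodes VEGF receptor 1, a region (chr5:147589697-147590426) ranked 6373, 19146 and 6097 in P6 and 37413 and 28118 in adult. In Flt4, which encodes VEGF receptor 3, a region (chr11:49632285-49632664) ranked 15067, 20052 and 14388 in P6, had no peak in Adult 1 and ranked 34684 in Adult 2. Near Cxcr4, a chemokine receptor gene, the region had no peak in P6 1 or in adult. At each of Aplnr, Flt1 and Flt4, P6 2 placed the region further down than P6 1 and P6 3 did, and all 3 regions were in all 3 E12 lists. Kdr, which encodes VEGF receptor 2, had a region of each age. Angpt2 and Lamb1, which encode angiopoietin 2 and a laminin chain, had an adult-only region each.

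Barrier genes had regions of both ages. Of 16 tight junction genes, 4 had an adult-only region (Cldn5, Tjp1, Cgnl1 and Jam2) and 4 a P6-only one (Jam2, Marveld2, Afdn and Pard3). These were 4 and 8 with P6 1 and 3. The adult-only region near Cldn5, the main claudin gene of brain endothelium, lay 14695 bp outside the gene (chr16:18761734-18762152) and ranked 21418 and 11929 in adult, 37512 and 32827 in P6 2 and 3, with no peak in P6 1 or any input list. Of 25 barrier transporter genes, 4 had an adult-only and 3 a P6-only region, or 5 and 8 with P6 1 and 3. At Slco1a4, which encodes an organic anion transporter, the region lay within 1 kb of the start (chr6:141855937-141856433) and ranked 9457 and 15127 in adult and 59981 and 41344 in P6 2 and 3, with no peak in P6 1. The other 3 were at Slc38a3, Slc16a1 and Slc7a1, which encode carriers of glutamine, lactate and basic amino acids. Abcg2, a drug efflux pump gene, had 2 P6-only regions, at neither of which Adult 1, Adult 2 or P6 1 had a peak, and Slc30a1 and Slco2b1 had 1 each. Of 14 transcytosis genes, 2 had adult-only (Lrp1 and Insr) and 2 P6-only regions (Cavin1 and Tfrc), or 1 and 2 with P6 1, where Insr was lost.

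Wnt pathway genes likewise split, 7 of 25 with adult-only and 4 with P6-only regions, or 4 and 4 with P6 1 and 5 and 10 with P6 1 and 3. Lef1, Tcf7 and Tcf7l2, transcription factors at the end of the pathway, had regions of both ages. In Tcf7 an adult-only region (chr11:52273256-52273861) ranked 23990 and 20216 in adult and 15417 in P6 1, and a P6-only region of the same gene (chr11:52268371-52268859) ranked 12420, 19494 and 7874 in P6. Axin2, a feedback inhibitor, had a P6-only region that ranked 15035, 20374 and 11230 in P6, 27149 in Adult 2 and had no peak in Adult 1. Of 30 endothelial transcription factor genes, 13 had adult-only regions (43.3%) and 5 P6-only ones (16.7%), and all 5 of the latter were among the 13. With P6 1 and 3 the counts were 10 and 14, so the surplus of adult-only members was lost. Foxp1 had 4 adult-only and 2 P6-only regions, Mecom 2 and 0, and Prdm1 1 and 2. One of those at Prdm1, a repressor gene, (chr10:44502794-44503425) ranked 9053, 16607 and 2976 in P6 and 29347 and 28656 in adult.

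Of 25 matrix and basement membrane genes, 8 had adult-only and 5 P6-only regions, and 3 and 1 with P6 1. The counts became 4 and 10 with P6 1 and 3, so the surplus turned. Col18a1, the collagen gene that holds endostatin, kept both of its adult-only regions with P6 1. The counts were 5 and 4 of 24 for TGF-beta and BMP, 3 and 3 of 13 for flow response, 2 and 2 of 16 for fetal growth and 3 and 2 of 25 for xenobiotic and oxidative enzymes. For TGF-beta and BMP they were 7 and 10 with P6 1 and 3 and 8 and 4 with any gene within 50 kb, which gave 6 and 3 for both flow response and xenobiotic enzymes, the latter near the shares of all genes in that setting. Cell cycle genes had 1 adult-only member (Ccnd1) and 3 P6-only ones (Rrm2, Cdk1 and Cenpe) of 25, 0 and 1 with P6 1, and 6 and 8 with any gene within 50 kb. Of 16 venous and adhesion genes, Nr2f2 had an adult-only region and Vwf and Sele had P6-only regions, of which only that of Vwf remained with P6 1. A further list of 18 general endothelial genes had 6 and 3, and 4 and 10 with P6 1 and 3. The other marker lists had 0 to 3 adult-only and 0 to 4 P6-only members, among them 1 and 4 of 15 neuron markers and 1 and 2 of 11 astrocyte markers. The astrocyte counts became 4 and 0 with P6 1 and 3, the setting in which the circadian and glucocorticoid list had 11 and 4, and the part of astrocytes in that was not tested.

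**Figure D4:**
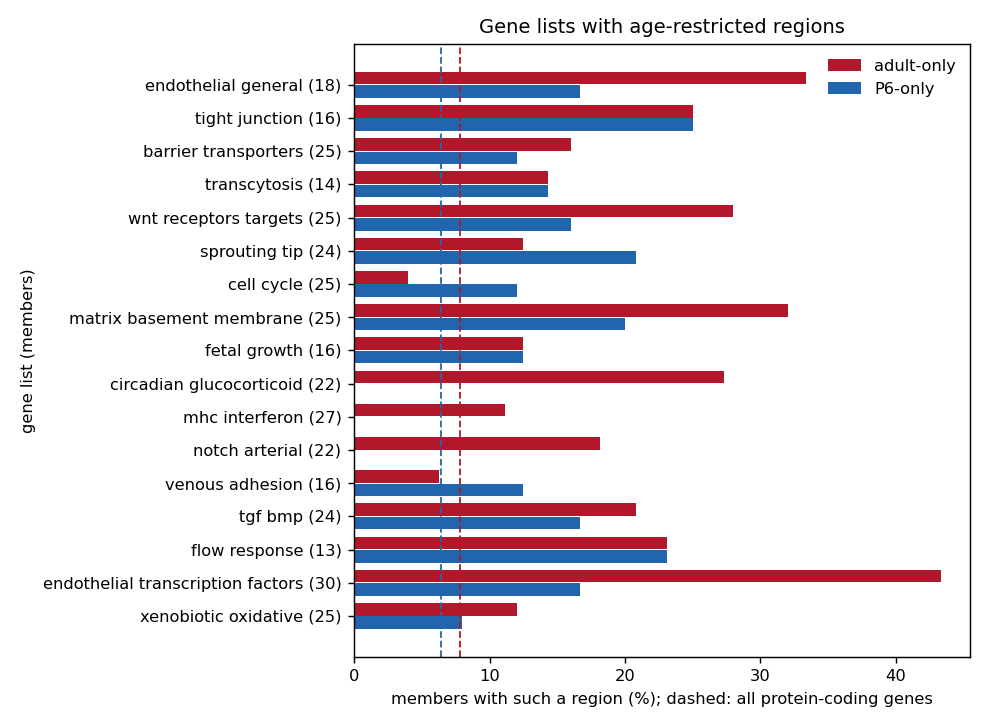
Share of the members (%) of 17 gene lists with an adult-only (red) or a P6-only (blue) region assigned, the number of members being in brackets and dashed lines giving the same share over all 21631 protein-coding genes (7.81% and 6.43%). The circadian and glucocorticoid, the Notch and arterial and the MHC and interferon lists have no P6-only member, which does not hold with P6 1 and 3 for any of them nor, for the first and the last, with any gene within 50 kb.

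At gene starts, 220 of 17274 genes with a listed start (1.27%) were open in the adult lists only and 108 (0.625%) in the P6 lists only, and 104 (0.602%) and 47 (0.272%) with P6 1. The shares were 1.16% and 0.498% with P6 1 and 3, and 0.0116% and 0.162% with absence judged in whole lists. After Itih5, Pde8b (a cyclic AMP phosphodiesterase gene) and Ezh1 (a histone H3K27 methyltransferase gene) came Ltbp4, Cachd1, Ghdc, Aox3 and Mrpl14. Of these 8, Itih5, Pde8b and Aox3 kept their place with P6 1. At Ezh1 the peak ranked 12894 and 11187 in adult, 34761 and 27391 in P6 2 and 3, and 13427 in P6 1, which lay next to the adult ranks and apart from P6 2 and 3. At Ezh1 fold enrichment was 4.06 and 4.06 in adult against 3.91, 3.68 and 3.85 in P6 1, 2 and 3. After Synpr (a synaptic vesicle protein gene), Igfbp1 and Fgf12 (a fibroblast growth factor homologous factor gene) came Golga7b, Nox4, Cr2, Timp1 and Tnc, and all 8 kept their place with P6 1. At Timp1, which encodes a metalloproteinase inhibitor, fold enrichment was 4.75, 7.28 and 6.16 in P6, with no peak in Adult 1 and 3.0 in Adult 2. At Nox4, an NADPH oxidase gene, it was 3.16, 6.77 and 6.75 in P6, 3.26 in Adult 1, with no peak in Adult 2.

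The promoter windows, 300 bases from 250 before to 50 after the start, were searched on both strands for 14 motifs. The ETS motif was spelled CCGGAAGT, that of SOX factors AACAATG, that of forkhead factors TGTTTAC, that of GATA factors AGATAA and that of TCF/LEF factors ATCAAAG. The AP-1 motif was TGANTCA, the cyclic AMP response element TGACGTCA, the E-box CACGTG and the nuclear receptor motif AGGTCA. The RBPJ motif was GTGGGAA, that of PAR bZIP factors TTATGTAA, the CCAAT box its own letters and the KLF motif GGGTGTGG, and the glucocorticoid response element completed the set. Motifs were counted separately, so that overlapping matches count for each. CCAAT was in 20.5% of the 254 windows of adult-only promoters, 36.9% of the 122 of P6-only promoters, 38.5% of all 21045 listed windows and 41.1% of the 9784 windows open in all 4 libraries. With P6 1 those shares were 31.0% and 35.3%. The ETS motif was in 3.94% of the adult-only and 0.820% of the P6-only windows, against 1094 of all 21045 and 9.72% of those open in all 4. AP-1 was in 7.87% and 3.28%, against 7.04% of all. The RBPJ motif was in 6.69% and 9.84%, against 6.07% of all, and with P6 1 in 6.19% of 113 and 21.6% of 51 windows. The other 10 motifs were in at most 15.4% of either set, and neither age-restricted set held the glucocorticoid response element, which 2 of all 21045 windows held. A match is a description of letters in the window and shows no binding. The median number of CpG was 20 in adult-only windows, 10.5 in P6-only windows, 13 in all and 22 in those open in all 4. It was 15 and 14 with P6 1, so the ages then differed little. In the printed stretches the RBPJ motif of Pde8b begins 177 bases before the start, and Synpr and Fgf12 have 2 CCAAT boxes each.

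Libraries that played no part in calling the regions were then examined. In E12 brain endothelium, from embryos, each of 3 libraries at matched length held a peak at 54.5 to 57.6% of the P6-only regions, 10.7 to 14.5% of the adult-only regions and 80.6 to 82.5% of the shared ones. The share for P6-only regions was thus near that of P6 1 (55.8%). The shortened E12 lists cover 23.3 to 23.7 Mb, however, and that of P6 1 covers 11.9 Mb. A 1-base overlap is easier to meet in the longer peaks, so these 2 shares do not compare openness. In the input libraries, shortened to 27136 peaks as well, a peak lay at 21.0% of the adult-only regions in the adult library and at 6.19, 14.0 and 19.1% in the 3 P6 libraries, and at 24.7% of the P6-only regions in adult and 18.8, 32.9 and 33.6% in P6. In the whole input lists, 35.9% of the adult-only and 39.2% of the P6-only regions had a peak in all 4. There is 1 adult input library, so ages were not tested there.

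Endothelium of 5 other organs showed the same direction of age. In 21 lists of retina, heart, lung, liver and kidney, each shortened to 19437 peaks, a peak lay at 17.4% of the brain adult-only regions in adult libraries and at 9.72% in P6 libraries, as means over organs. The difference of 7.71 percentage points was above 0 in 5 of 5 organs, with an exact two-sided permutation p of 7.72e-05 for ages exchanged within organs, the smallest that 12960 labelings can give, and 0.000116 after Benjamini-Hochberg adjustment over 3 sets of regions. For the P6-only regions the means were 13.6% and 25.8%, a difference of -12.2 points that was below 0 in 5 of 5 organs with the same exact p and adjusted p. The shared regions had 70.2% and 69.9%, a difference of 0.318 points (exact permutation p = 0.796). These p-values treat the libraries of different organs as independent. The labels do not name the animals, so libraries of different organs may come from the same mice.

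Retina, the other organ of the central nervous system, differed most at P6-only regions, where adult libraries had peaks at 5.56 and 7.67% and P6 libraries at 25.0 to 29.5%. Liver differed least, with 15.4 and 16.04% in adult and 22.1 and 21.3% in P6, and with 12.5 and 12.2% against 8.23 and 11.6% at the adult-only regions. In each of the 5 organs, adult and P6 libraries did not overlap at either set. At the shared regions they did not overlap in retina, heart and lung either, but did in liver and kidney. With P6 1 required, the differences were 5.81 and -18.4 points, and with P6 1 and 3 they were 4.32 and -14.0. With whole lists the adult-only difference turned to -14.8 points (exact permutation p = 0.000926), the P6-only difference grew to -38.1 points, and the shared regions also differed, by -9.68 points. The direction for adult-only regions thus held at matched length only.

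**Figure D5:**
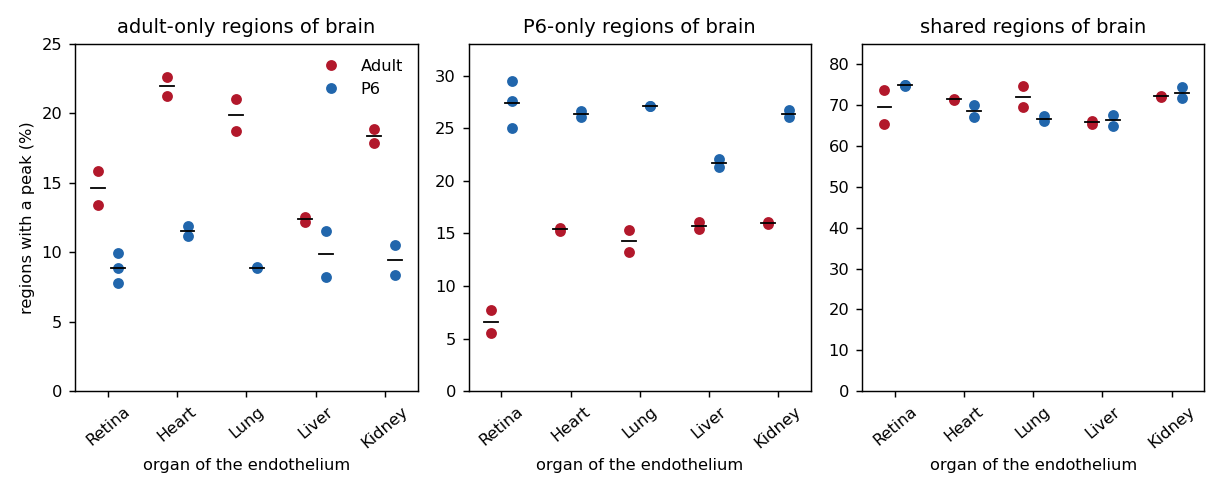
Share of the adult-only, P6-only and shared regions of brain endothelium (%) with a peak in the 19437 highest-ranked peaks of endothelial ATAC-seq libraries of 5 other organs. Points are libraries, red for adult and blue for P6, and lines are group means. At P6-only regions each P6 library is above each adult library of its organ.

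Nuclear RNA of the same brain endothelial fractions was measured in 2 adult and 2 P6 libraries of 12.9, 20.1, 9.37 and 8.88 M estimated reads. Of 88796 transcripts tested, 12 were higher in adult (0.0135%) and 50 lower (0.0563%) by edgeR's quasi-likelihood test over all 53 bulk libraries, at an adjusted p under 0.05 and a log2 difference of at least 1. No table used here pairs the transcripts with genes, so they could not be set against the regions. The transcript ENSMUST00000160132.7 had 315 and 403 reads in adult and 0 and 0 in P6, at least 139-fold higher against a floor of 3 reads over both P6 libraries (edgeR adjusted p = 0.000127). ENSMUST00000023222.12 had 231 and 296 against 0 and 0 (at least 102-fold, edgeR adjusted p = 0.0140). ENSMUST00000033310.8 had 57 and 84 reads in adult and 2765 and 2312 in P6, a log2 difference of -5.92 (edgeR adjusted p = 0.000127). The standard error of that difference, 0.68, was derived from the F statistic of the test and not fitted directly. ENSMUST00000109923.8 had 0 and 0 in adult and 441 and 552 in P6, at least 568-fold lower in adult (edgeR adjusted p = 0.000127). The number that passed depended on the fit. With these 4 libraries alone edgeR passed 0 of 53912, 14193 of which had an unadjusted p under 0.05, and DESeq2 passed 5931, of which 2653 were higher in adult. Without Adult 1 or Adult 2 the fit of all libraries passed 8 or 13.

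Gene-level RNA came from single-cell libraries of cortex cells selected with CD31 beads, 1 from P8 pups and 1 from 2-month-old adult mice. Ages thus have no replicate and no test. UMIs were summed over 6495 of 7305 barcodes at P8 and 4211 of 5552 in adult that had UMIs of at least 2 endothelial markers (8 barcodes occur in both libraries), and are given as CPM (counts scaled to equal library totals) with an exact Poisson 95% interval that covers counting error only. The 2 libraries also differed in other cell types: the 15 neuron markers summed to 72.8 CPM at P8 and 316 in adult, the 12 mural markers to 836 and 1802, and the 8 erythroid markers to 16313 and 8338, against 9920 and 11705 for the 14 endothelial markers. The part of these cell types in the values below was not tested.

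Genes with adult-only regions were more often higher in the adult library than genes at large. Of 12836 protein-coding genes with at least 20 UMIs in all, 55.7% were higher in adult, 12.3% at least 2-fold higher and 8.56% at least 2-fold lower. Of 1172 genes with an adult-only and no P6-only region, 66.7% were higher in adult (Wilson 95% interval 64.0 to 69.4%), 24.1% at least 2-fold higher and 7.42% at least 2-fold lower, with a median log2 difference of 0.36 against 0.10 for all genes. Of 836 genes with a P6-only and no adult-only region, 50.8% were higher in adult (47.5 to 54.2%), 11.1% at least 2-fold higher and 134 of the 836 at least 2-fold lower, with a median of 0.02. With P6 1 the shares were 67.2% and 47.9%. Of 7810 genes with shared regions only, 54.6% were higher in adult. Among regions with no peak in any whole input list, however, genes with shared regions were higher in adult about as often (159 of 226, 70.4%) as genes with adult-only regions (201 of 283, 71.0%), so the surplus was not particular to adult-only regions there.

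Several of the genes named above had their higher level on the side of their region, the side being that of the call by rank. They are examples from the leading regions, the promoters and the gene lists. Genes on the same and on the opposite side were not counted among the named genes. No values are given here for Dock2, Eif2a, Cyp2b19, Asap1, F12, Heatr5a, Ldb2, Nfia, Tmem236 and Trabd2b of the leading regions. Itih5 had 71.9 CPM (69.9 to 74.0) at P8 and 960 (948 to 972) in adult, Lmo7 16.1 and 112, Gas6 41.1 and 301, and Tap2 10.5 and 40.1. Zbtb20 had 210 and 1062. Of the 6 clock and glucocorticoid genes, Zbtb16 had 3.82 (3.36 to 4.32) and 285 (278 to 291), Nr1d1 8.56 and 51.5, Per1 9.38 and 55.3, Cry1 16.7 and 36.0, and Sgk1 104 and 127, while Nfil3 had 3.95 and 2.24. Slco1a4 had 264 and 1659, Bmx 14.9 and 163, Mgp 154 and 1333, and Alpl, the alkaline phosphatase gene, 3.47 and 118. Ephx1, an epoxide hydrolase gene with 3 adult-only regions, of which 1 remained with P6 1, had 7.76 and 93.1. On the P6 side, Aplnr had 250 (246 to 254) at P8 and 8.90 (7.79 to 10.1) in adult, Cxcr4 24.5 and 3.95, Nox4 19.1 and 0.387, Timp1 28.8 and 1.24, Prdm1, which also has an adult-only region, 39.6 and 6.15, and Cdk1, which drives mitosis, 77.8 and 2.24.

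Other genes had their higher level on the opposite side. Among genes with adult-only regions, Lamb1 had 126 at P8 and 3.87 in adult, Angpt2 43.2 and 6.97, Ccnd1 386 and 97.6, and Slc16a1 1634 and 320. Among genes with P6-only regions, Flt1 had 1208 at P8 and 3390 in adult, Abcg2 346 and 1055, Axin2 38.3 and 122, and Lef1, which has regions of both ages, 182 and 515. Cldn5 was near equal at 4851 and 4326. Synpr, Igfbp1, Fgf12 and Golga7b, whose starts led the P6-only promoters, had at most 1.43 CPM in either library.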

How the data were processed

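ATAC-seq peaks were called by the authors with MACS2 2.1.2, per the file headers, separately in each library, with no control, in broad mode. The deposited lists give −log10 of the q-value and a fold (ratio over local background) for each peak. Per the submitters' processing notes reads were aligned to mm10 with Bowtie2. The deposited RNA-seq tables hold estimated counts per transcript, made with Salmon 1.5.1 per the submitters' processing notes, and were rounded to whole reads, which changed totals by at most 0.0187%. The deposited single-cell matrices hold UMI counts, made with Cell Ranger per the submitters' processing notes. Strand settings are not given in the sources used here.

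Peaks on chromosomes 1 to 19 and X were kept, shortened to equal lists by −log10 q, merged where they shared 1 base, and assigned to the nearest protein-coding gene of RefSeq GRCm38.p6 within 50 kb, of which 17274 of 21631 have a listed start. RNA was tested with edgeR 4.0.16 in R 4.3.3 (TMM, filterByExpr, Benjamini-Hochberg adjustment), over 53 libraries, 2 adult heart input libraries that differed by less than sampling noise being averaged, with the dispersion trend taken from every 40th transcript. DESeq2 1.42.0 was an alternative. Single-cell differences are log2 of CPM plus 1. No doublets were removed, and no depth thinning was done since no shares of cells are compared. The scripts were tested on simulated data. In the simulated RNA, 107 of 200 changed transcripts passed, with 1 false call, so the RNA fit can miss changes.

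Named were the genes of the 12 first regions and 8 first promoters of each age, the 8 genes with most regions, and up to 4 members per list and direction. Members and lists were chosen with earlier results of these data known. The alternatives tried were the P6 libraries used, list length, ranking, overlap, window, gene assignment, normalization, filter, tool, barcodes and leaving out each library. Intervals and floors cover counting error only.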

Additional observations from a re-analysis of the deposited data

How the results depend on the processing

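Without each of the 4 libraries in turn, adult-only regions numbered 3816 to 5091 and P6-only regions 2755 to 6749, and promoters 345 to 506 and 174 to 315; fewer libraries have to meet the call, which raises counts. With P6 1 there were 1135 P6-only regions and 104 and 47 promoters. With the longer lists of 38443 peaks there were 3685 and 3531 regions, with 10000 peaks 603 and 404 (67 P6-only promoters), with whole lists 460 and 22959 (8 and 694 promoters), with whole lists at −log10 q of at least 5 158 and 9597 (6 and 590), with absence judged in whole lists 64 and 1056 (2 and 28), and with fold ranks 689 adult-only promoters. With P6 3 as the only P6 library, of the adult kind of read file, there were 4579 and 6749 regions and 506 and 191 promoters. With P6 1 and 3 there were 3145 P6-only regions. Regions with no input peak numbered 450 and 434. Of the 337 genes of the 17 lists, 68 and 44 had adult-only and P6-only regions, 18 and 18 without input peaks (1.70 and 1.51% of all genes), 101 and 68 for any gene within 50 kb (17.6 and 12.6%) and 70 and 106 with P6 1 and 3 (9.63 and 9.32%). P6 1 and 3, and no input peak, were chosen after seeing the data.

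The same-age minus different-age Jaccard difference was -0.00259 at 10000 peaks, and ran from -0.0260 to 0.0671 without each library. The adult-only difference in other organs was -14.8 with whole lists, that of P6-only regions -38.1, and that of shared regions -0.0360 with P6 1, -9.68 with whole lists, -0.323 without heart and -0.947 without lung. Single-cell shares higher in adult were 70.6 and 55.2% over all barcodes (58.9% of all genes) and 71.0 and 46.1% without input peaks, where genes with shared regions had 70.4%.

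Transcripts that passed were 62 (12 higher, 50 lower), 130 (37 and 93) with RLE factors, 0 (0 and 0) in edgeR with 4 libraries, 5931 (2653 and 3278) with DESeq2, and 8 to 43 (1 to 19 and 7 to 24) without each of the 4 libraries, where the lone sample of a group is assumed to vary like the others. Replicate numbers did not pair these libraries (r = -0.00123 for same-numbered deviations over 2 pairs), and with the replicate block 62 passed (13 and 49). Causes were not tested. The P6 1 list is short at 19.6 M tags, between the 19.1 M and 20.2 M of P6 3 and P6 2.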
